A study of Nomascus leucogenys and Hoolock leuconedys and Nomascus gabriellae with 23 samples.

Results

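Hylobates and Symphalangus are 2 of the 4 living genera of gibbons, the small apes of Asia, and this account sets the LAVA insertions of one beside those of the other. The members are all listed sites at which at least 1 of 5 Hylobates or 2 Symphalangus animals carried LAVA, 3893 of the 5490 sites in the deposited table. The Hylobates animals are 1 Hylobates pileatus, 1 Hylobates lar, 2 Hylobates moloch and 1 Hylobates muelleri, and both Symphalangus animals are Symphalangus syndactylus. All 7 were sampled as blood DNA for whole-genome sequencing, and the labels give no age, sex, treatment or relationship. The other 16 animals of the study (3 Hoolock and 13 Nomascus) are used only to say whether a site was also carried outside the 2 genera.

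LAVA is a composite retrotransposon of gibbons, named after its parts (L1, Alu, VNTR and an Alu-like part). Such elements are copied through RNA and reverse transcribed into a new genomic place, usually beginning at the 3' end of the RNA, so that copies that stop early lack their 5' part. An insertion is passed on to descendants and is rarely lost precisely, so a site shared by 2 animals usually marks a shared ancestor. A copy in an intron can supply splice and polyadenylation signals, and these depend on its orientation to the gene.

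Each site is either a single-base position or an interval that spans an element. Single-base sites made up 2808 of the members and interval sites 1085. At every one of the 4372 single-base sites of the table the deposited length equals the distance between the first and last position on a LAVA consensus, and the last position was always 1838 or 1839. The length of such a site is therefore read here as how much of the 5' part is present. This reading rests on the deposited start on the consensus, and how that start was called is not given. Sites of the deposited classes intronic, exonic and untranslated region are here called sites in genes. Read depth is unknown, and missing calls, counted here as not carried, were 1.1% of the calls of the 7 animals.

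The first comparison asked how many of the sites the genera share. Both genera carried 1819 sites, Hylobates alone of the pair carried 1351 and Symphalangus alone carried 723. The largest block was the 1077 sites that no animal of the 7 lacked, and 916 of them were interval sites. Across the pair, 236 sites were carried by all 5 Hylobates and no Symphalangus animal, 6.06% of the 3893 sites, and 615 were carried by both Symphalangus and no Hylobates animal, 15.8%. These 851 sites, 21.9% of the members, are the ones at which the genera do not overlap. By Fisher's exact test per site they share the smallest p that 5 against 2 animals allow, 0.0476, and the smallest value after Benjamini-Hochberg adjustment over 3893 sites was 0.218, so 0 sites passed. They are described below as complete differences, with no test of a single site.

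**Figure D1:**
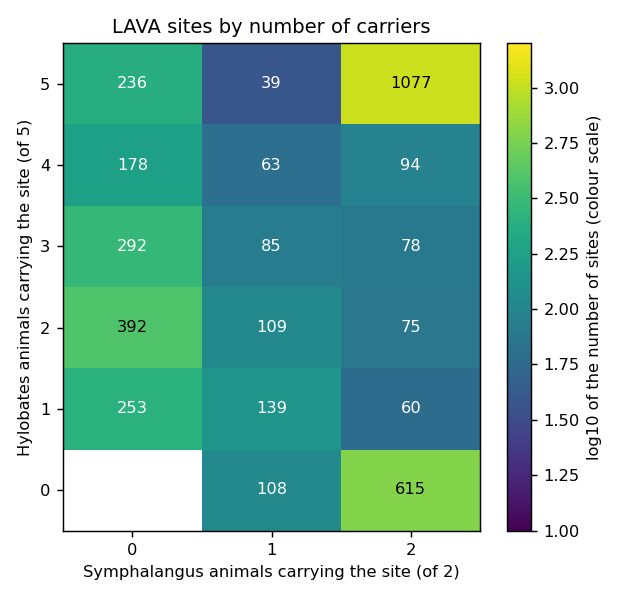
Number of LAVA sites by the number of Hylobates animals (vertical axis, 0 to 5) and Symphalangus animals (horizontal axis, 0 to 2) that carry them. Numbers in the cells are sites and the colour is their log10. Sites carried by all 7 animals (1077) and by both Symphalangus animals alone (615) are the largest cells.

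Animals of each genus carried about the same total. The Hylobates animals carried 1995 sites in H. pileatus, 2030 in H. lar, 2411 and 2259 in the 2 H. moloch and 2374 in H. muelleri, and the Symphalangus animals carried 2267 and 2274. The Symphalangus values lay inside the Hylobates range. The means were 2214 ± 193 (SD, n = 5) in Hylobates and 2271 ± 4.95 (SD, n = 2) in Symphalangus, which did not differ beyond the spread between animals (exact two-sided permutation test, adjusted p = 0.762 over 3 tests of counts). Within Hylobates, H. pileatus and H. lar carried 992 and 1025 single-base sites, below the 1475, 1262 and 1435 of the H. moloch and H. muelleri animals. The order was the other way at interval sites, with 1003 in H. pileatus and 1005 in H. lar, above the 936 and 997 of the H. moloch animals and the 939 of H. muelleri. Over all listed sites, missing calls numbered 90 in H. pileatus, 87 in H. lar, 28 and 66 in H. moloch and 24 in H. muelleri. The Symphalangus animals had 59 and 69. Whether differences in calling bear on these orders was not tested.

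What differed was how the totals were built. Of the sites carried in Hylobates, 42.6% (1352 of 3170) were carried by all 5 animals, and of the sites carried in Symphalangus 78.6% (1999 of 2542) were carried by both. These shares compare 5 animals of 4 species with 2 animals of 1 species, so they are not tested against each other. Sites present in some Hylobates and in no Symphalangus animal numbered 310 in H. pileatus, 338 in H. lar, 733 and 580 in H. moloch and 664 in H. muelleri. The corresponding sites, carried by 1 Symphalangus and no Hylobates animal, numbered 52 and 56. Pairs of Hylobates animals had Jaccard indices (sites carried by both over sites carried by either) of 0.596 to 0.776 over 10 pairs, the Symphalangus pair had 0.786, and pairs across the genera had 0.399 to 0.463 over 10 pairs. Listed sites have at least 2 carriers, so sites private to 1 animal are missing from all these values. In Symphalangus this leaves out every partly carried site confined to the genus, and in Hylobates only those of 1 animal. All 108 sites of 1 Symphalangus and no Hylobates animal had a carrier in another genus. The 78.6% and the 0.786 can be higher for this reason.

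**Figure D2:**
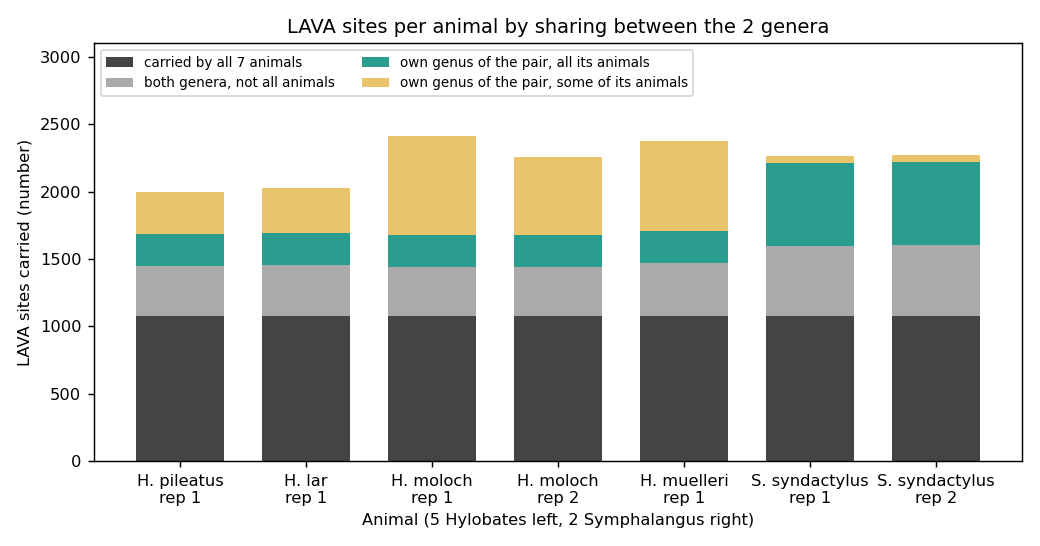
LAVA sites carried by each of the 7 animals (stacked bars, number of sites), divided by whether a site was carried by all 7, by both genera but not all animals, or by 1 genus of the pair in all or some of its animals. The 5 Hylobates bars hold 236 sites of the complete kind each and the 2 Symphalangus bars 615 each. The complete kind asks for 5 carriers in Hylobates and for 2 in Symphalangus, so these counts are not matched.

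The complete differences were mostly confined to the genus among the 23 animals. Of the 236 such sites of Hylobates, 192 had no carrier in another genus, 26 had one in Hoolock only, 4 in Nomascus only and 14 in both. Of the 615 Symphalangus sites, 526 had none, 54 had one in Hoolock only, 17 in Nomascus only and 18 in both. A further 636 sites were carried by 2 to 4 Hylobates animals and by no other genus, which makes 828 sites found in Hylobates alone. The table lists sites with at least 2 carriers, so a site found in Symphalangus alone is always carried by both animals, and a site of a single Hylobates animal is listed only where another genus carries it.

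Sites carried in both genera and in no other animal numbered 130, and 23 of these were carried by all 7. In 28 of the 130 the carriers were 1 animal of each genus. For the same kind of sharing, Hylobates and Hoolock had 175 sites, 17 of them in all animals of both, and Hylobates and Nomascus had 177 sites, 1 of them in all animals of both. Symphalangus and Hoolock had 86 sites, 40 of them in all animals of both, and Symphalangus and Nomascus had 59 sites, 2 of them in all animals of both. Of the 23 sites, 11 were intronic and 12 intergenic, 6 of the intronic sites were in sense orientation, and lengths ran from 394 to 1839 bp with a median of 585 bp. Named genes among them include DEPTOR, whose product binds and inhibits the mTOR kinase (1798 bp, sense, chromosome 16 at 74749604), ELP2, a subunit gene of the Elongator complex (1791 bp, sense, chromosome 4 at 44445898), and MAPK8IP3, which encodes a scaffold of JNK signalling and axonal transport (1374 bp, antisense, chromosome 18 at 103175356). CLASP2, which encodes a protein that stabilises microtubule plus ends, held an antisense site of 463 bp on chromosome 4 at 118880879. CHID1, ACSS3 and OR13A1 held sites of 431, 394 and 1834 bp. Coordinates are the deposited starts plus 1, on the reading that the table counts its starts from 0, which it does not state, and the sources used here do not give the genome build.

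The second comparison asked how long the inserted elements were. Among sites absent from the other genus, those carried by every animal of their genus were short less often than those carried by only some Hylobates animals. Single-base sites carried by all 7 animals did not share this, with 57.8% of 161 under 540 bp. Sites found in Hylobates alone and carried by all 5 had a median length of 1623 bp, and those carried by 2 to 4 animals had one of 676 bp. Sites found in Symphalangus alone had a median of 1450 bp. Sites under 540 bp made up 18.8% of the first set (36 of 192), 47.5% of the second (302 of 636) and 17.3% of the Symphalangus set (91 of 526).

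Of the 828 Hylobates-only sites 40.8% were short (95% interval 37.5 to 44.3), against 17.3% of the Symphalangus-only sites (14.2 to 20.8), with an odds ratio of 3.29 (95% interval 2.51 to 4.35). Fisher's exact test on sites, adjusted over 4 pairs of sets, gave p = 8.3e-20, but it takes sites and not animals as its units. The sets are also unlike by construction, since 636 of the 828 Hylobates sites and none of the Symphalangus sites were partly carried. Over all sites of an animal, the short share was 23.3% in H. pileatus, 24.4% in H. lar, 29.7% and 26.1% in H. moloch and 29.9% in H. muelleri, against 22.2% and 21.4% in the Symphalangus animals. These groups did not overlap, and the means of 26.7% ± 3.04 (SD, n = 5) and 21.8% ± 0.577 (SD, n = 2) gave an adjusted p of 0.127 in the exact two-sided permutation test. Sites of at least 1500 bp were 39.7% of the Hylobates-only and 49.8% of the Symphalangus-only sites (odds ratio 0.665, Fisher's exact test over sites, adjusted p = 0.000635). With only the sites carried by all 5 Hylobates animals, the shares were 18.8% against 17.3% for short sites (odds ratio 1.1, 95% interval 0.698 to 1.72, adjusted p = 0.659) and 53.1% against 49.8% for long ones (adjusted p = 0.598). Within Hylobates, among all sites absent from Symphalangus, 22.9% of 236 completely carried sites were short, against 47.7% of 1115 partly carried sites (odds ratio 0.325, 95% interval 0.23 to 0.454, adjusted p = 1.56e-12). The absence of a call between these completely carried sets depended on which animals were counted. Without H. pileatus, the completely carried Hylobates-only sites were 9.0 points more often short than the Symphalangus-only sites (Fisher's exact test, adjusted p = 0.00438). Complete differences, whatever the other genera carry, were short at 22.9% in Hylobates and 19.5% in Symphalangus (adjusted p = 0.395), and this p fell below 0.05 without H. pileatus (0.000729), H. lar (0.0416) or H. moloch replicate 2 (0.0452) by the same exact test.

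The lengths were not spread evenly. Among the partly carried Hylobates-only sites, 34.0% fell in the 50 bp bin that begins at 450 bp and 11.6% in the one that begins at 1600 bp, against 8.85% and 6.25% of the sites carried by all 5. They correspond to 2 narrow windows of first positions on the consensus. A start in the 3' window, with a median position of 1385, was seen at 34.3% of the partly carried and 9.38% of the completely carried Hylobates-only sites, and at 8.37% of the Symphalangus-only sites. A start in the 5' window, with a median position of 212, was seen at 9.12%, 4.17% and 3.8% of the same sets. Sites with these starts had more scattered carriers than copies that start at positions 0 to 5. Of 806 member sites that start in the 3' window, 37.7% were carried in both genera, 60.7% also in another genus and 11.04% were complete differences. For the 344 that start in the 5' window these shares were 44.8%, 70.1% and 11.3%. Of 364 members that start at positions 0 to 5, here called full-length copies, 14.01% were carried in both genera, 21.2% in another genus and 55.8% were complete differences. The start windows were drawn after the lengths had been seen, and no test is given for them.

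Full-length copies were a larger part of the Symphalangus set. They made up 17.7% of the Hylobates-only sites carried by all 5 (34 of 192, 95% interval 12.6 to 23.9), 12.1% of those carried by 2 to 4 (77 of 636) and 29.5% of the Symphalangus-only sites (155 of 526, 95% interval 25.6 to 33.6). Per animal, full-length copies were 9.38% of single-base sites in H. pileatus, 9.76% in H. lar, 9.76% and 10.3% in H. moloch and 8.85% in H. muelleri, and 15.9% and 16.4% in the Symphalangus animals. No Hylobates animal reached the lower Symphalangus animal. The means were 9.61% ± 0.537 (SD, n = 5) and 16.2% ± 0.39 (SD, n = 2). The exact two-sided permutation test gave the smallest p that 21 assignments allow, 0.0476, and an adjusted p of 0.0952 over 4 tests of shares. An adjusted p under 0.05 was possible only if all 4 shares reached that smallest p. Missing the threshold therefore does not show that the genera are alike. Symphalangus-only sites also had a group of lengths from 1300 bp to below 1400 bp, 16.2% of the set (85 of 526), against 7.29% (14 of 192) of the completely carried and 5.97% (38 of 636) of the partly carried Hylobates-only sites.

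**Figure D3:**
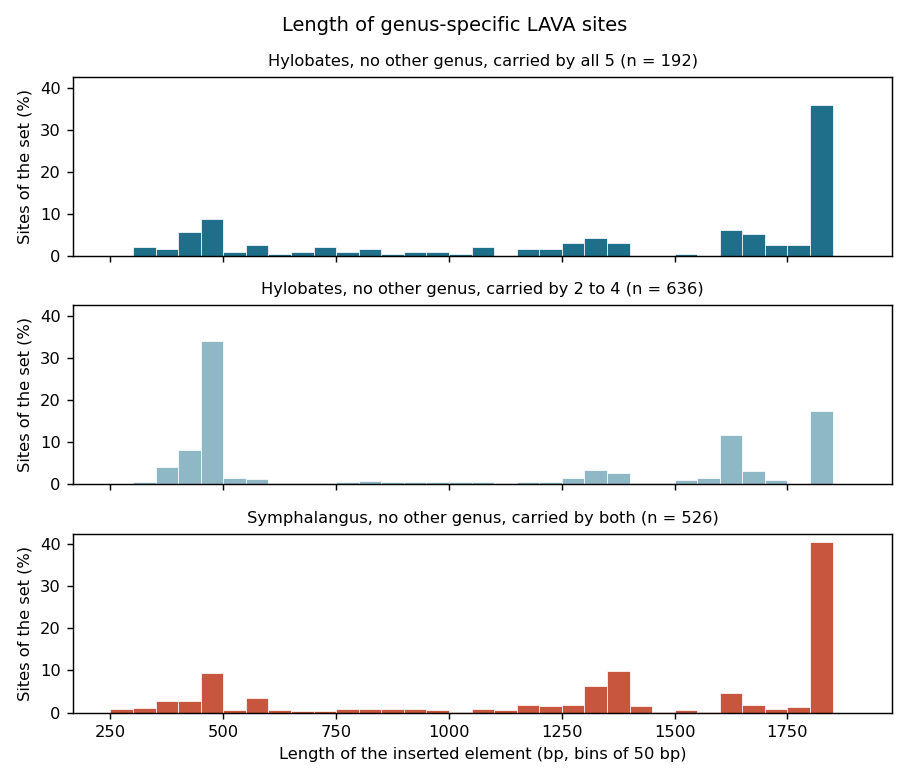
Length of the inserted element (horizontal axis, bp, bins of 50 bp) at sites found in Hylobates alone and carried by all 5 animals (top), by 2 to 4 animals (middle), and at sites found in Symphalangus alone (bottom); the vertical axis is the percent of the set. The bin that begins at 450 bp holds 34.0% of the middle set and 8.85% of the top set, and the bin that begins at 1350 bp holds 9.89% of the bottom set.

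The third comparison asked whether Symphalangus sites lie in genes more often than Hylobates sites, an excess already known when the sets were chosen. Sites in genes were 50.1% of the Hylobates-only sites (415 of 828, 95% interval 46.7 to 53.6) and 57.0% of the Symphalangus-only sites (300 of 526, 52.7 to 61.3). The difference was -6.91 points, with an odds ratio of 0.757 (95% interval 0.604 to 0.949) and an adjusted p of 0.0451 by Fisher's exact test over 4 pairs of sets. Since the excess was already in view and sites are not replicates of a genus, this p describes the listed sites and is no independent evidence of a difference between the genera. The test over animals of the share in genes, given with the animals' values, had an adjusted p of 0.0952. With only the sites that all 5 Hylobates carried, the shares were 47.4% (91 of 192) against 57.0% (odds ratio 0.679, 95% interval 0.48 to 0.959, adjusted p = 0.0451). For complete differences whatever the other genera carry, the shares were 48.7% (115 of 236) in Hylobates and 56.4% (347 of 615) in Symphalangus. Their adjusted p of 0.0613 by Fisher's exact test missed the threshold (odds ratio 0.734, 95% interval 0.537 to 1.0). The p over sites lay close to the threshold of 0.05. It was above it under 7 of 11 other ways of counting sites. Over all 18 alternatives, differences were -4.68 to -9.95 points and adjusted p from 0.00531 to 0.138. Leaving out H. pileatus (adjusted p = 0.0673) or H. moloch replicate 1 (adjusted p = 0.0574) also took it above. Before adjustment, Fisher's exact test gave p = 0.014 with all animals and 0.0168 and 0.0144 in these 2 cases. An adjusted p also depends on the other pairs of sets. The 0.0451 of both sets above is 1 value, set by the sites that all 5 Hylobates carried.

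Within Hylobates, complete and partial carriage gave similar shares in genes, 48.7% (115 of 236) and 50.6% (564 of 1115) of the sites absent from Symphalangus (odds ratio 0.929, 95% interval 0.694 to 1.24, Fisher's exact test, adjusted p = 0.617). Sites carried by 1 Symphalangus animal and no Hylobates animal were in genes at 49.1% (53 of 108), sites of all 7 animals at 49.9% (537 of 1077) and sites of both genera with fewer carriers at 51.6% (383 of 742). The Symphalangus sites carried by both animals and no Hylobates animal therefore had the highest share of the 9 sets plotted for this comparison, with the set found in no other genus at the top. All 108 sites of 1 Symphalangus animal had a carrier in Hoolock or Nomascus, against 89 of the 615 carried by both. Carriage within Symphalangus and sharing outside the pair cannot be told apart here.

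Because 2 Symphalangus animals were set against 5 Hylobates animals, the share was also taken for every pair of Hylobates animals. Sites of Hylobates alone that both animals of a pair carried were in genes at 47.6% to 50.3% over the 10 pairs, each with 252 to 600 sites, and all 10 values lay below the 57.0% of the Symphalangus pair. The H. moloch pair, the only one of a single species, had 48.1% of 561 sites in genes. Pairs share animals and sites, so these are not 10 independent values. Over all sites an animal carried, the share in genes was 50.5% in H. pileatus, 49.9% in H. lar, 50.5% and 50.2% in H. moloch and 50.7% in H. muelleri, against 52.0% in both Symphalangus animals. The groups did not overlap, with means of 50.3% ± 0.33 (SD, n = 5) and 52.0% ± 0.0424 (SD, n = 2). The exact two-sided permutation test again gave its smallest p, 0.0476, and an adjusted p of 0.0952, with the same limit as for full-length copies. Animals of a genus also carry many of the same sites, 1999 in both Symphalangus and 1352 in all 5 Hylobates animals. The values per animal, here and for length, are therefore not independent.

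**Figure D4:**
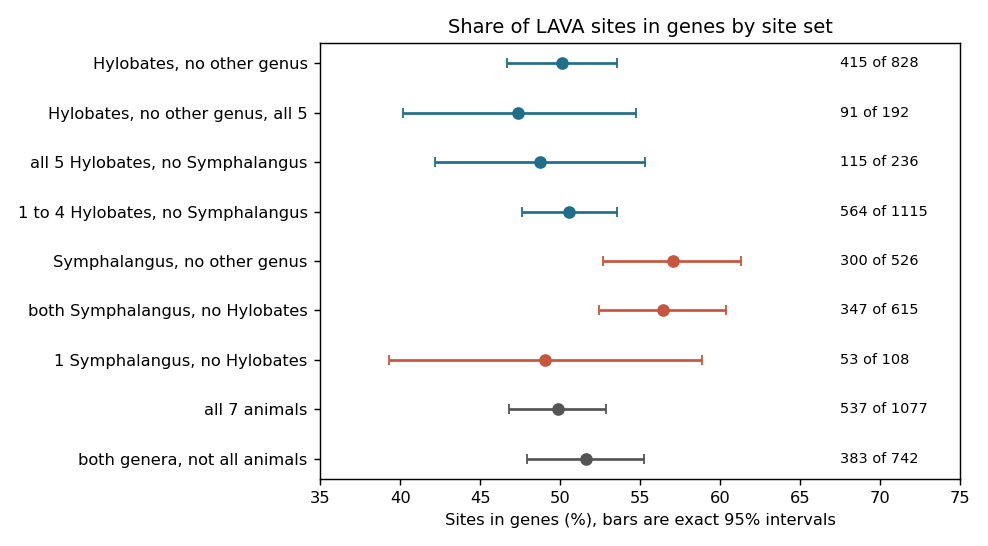
Percent of sites in genes (horizontal axis) for 9 sets of LAVA sites, with exact 95% intervals as bars and the counts at the right; Hylobates sets are on top, Symphalangus sets below them and shared sets at the bottom. The set of Symphalangus and no other genus is at 57.0% and that of Hylobates and no other genus at 50.1%.

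Nearly all sites in genes were intronic. Introns held 48.9% of Hylobates-only and 56.1% of Symphalangus-only sites, intergenic sequence 42.5% and 37.8%, the promoter class 3.02% and 2.09%, and the terminator class 4.35% and 3.04%. Untranslated classes held 10 of 828 and 5 of 526 sites, and exons none. Sites in genes with a protein-coding name in the RefSeq table made up 39.4% of the Hylobates-only (95% interval 36.0 to 42.8) and 44.3% of the Symphalangus-only sites (40.0 to 48.7), and with only these counted as in genes the adjusted p was 0.138 by Fisher's exact test. By chromosome, the share in genes was lower in Hylobates on 18 of 26 chromosomes and higher on 8.

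The shares in genes lay farthest apart at middle lengths, in a division made after the data had been seen and given without a test. From 540 bp to below 1700 bp, 47.8% of Hylobates-only sites (140 of 293, 95% interval 41.9 to 53.7) and 64.5% of Symphalangus-only sites (136 of 211, 57.6 to 70.9) were in genes. The Hylobates-only sites of this range carried by all 5 animals had 44.2% (34 of 77). Under 540 bp the shares were 53.6% (181 of 338) and 53.8% (49 of 91), and from 1700 bp up they were 47.7% (94 of 197) and 51.3% (115 of 224). The Symphalangus-only group of 1300 bp to below 1400 bp, 55 of 85 in genes, lies in the middle range.

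**Figure D5:**
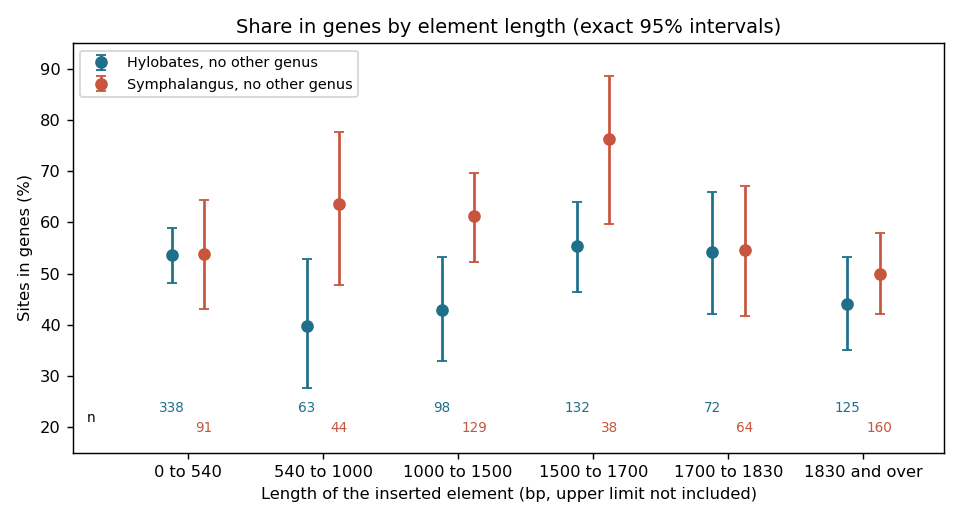
Percent of sites in genes (vertical axis) by length of the inserted element (horizontal axis, bp) for sites found in Hylobates alone (left point of each pair) and in Symphalangus alone (right point), with exact 95% intervals and the number of sites under each point. The 2 genera are at 53.6% and 53.8% under 540 bp, and at 42.9% and 61.2% from 1000 bp to below 1500 bp.

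No difference in orientation passed the threshold. Of intronic sites, 41.0% were in sense orientation among Hylobates-only sites (166 of 405, 95% interval 36.2 to 45.95) and 36.9% among Symphalangus-only sites (109 of 295, 31.4 to 42.7), an odds ratio of 1.18 with an interval from 0.861 to 1.63 (Fisher's exact test, adjusted p = 0.617). For complete differences the shares were 36.3% (41 of 113) and 36.8% (125 of 340), an odds ratio of 0.979 with an interval from 0.611 to 1.56. Sites carried by some Hylobates and no Symphalangus animals were 44.5% sense (245 of 550), against 36.3% of completely carried ones (Fisher's exact test, adjusted p = 0.472). Intronic sites of all 7 animals were 31.1% sense (166 of 533), most of them interval sites. Per animal, the sense share was 35.1% in H. pileatus, 37.1% in H. lar, 37.2% and 37.4% in H. moloch and 37.4% in H. muelleri, and 36.3% and 35.02% in the Symphalangus animals (exact permutation test, adjusted p = 0.143).

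Hylobates-only sites lay in 406 named genes and Symphalangus-only sites in 293, and 20 names were in both, 4.93% of the Hylobates and 6.83% of the Symphalangus genes. In these 20 genes the nearest Hylobates and Symphalangus sites lay 2412 to 257764 bp apart, with a median of 38780 bp. In 9 genes the nearest pair had the same orientation and in 11 the opposite, and in 7 the Hylobates site was carried by all 5 animals. No chance value for the overlap is given, since gene lengths on this build were not used here.

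COMMD1, which encodes a regulator of copper transport and NF-kappaB, held the most, with 4. Its Hylobates sites were one of 452 bp in H. pileatus and H. moloch replicate 2 and one of 1654 bp in all 5 animals, both antisense, and its Symphalangus sites were an antisense one of 1351 bp and a sense one of 1655 bp. All 4 lay between 30073471 and 30250046 on chromosome 14. FHIT, a very long gene at a human fragile site, held 2 Hylobates sites of 462 bp, carried by 3 and 4 animals, and a Symphalangus site of 452 bp. UQCC1, an assembly factor gene of respiratory complex III, held a Hylobates site of 1827 bp in all 5 animals and Symphalangus sites of 1837 and 1272 bp.

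NSD1 encodes a histone H3 methyltransferase, and it held a sense Hylobates site of 422 bp in all 5 animals and an antisense Symphalangus site of 763 bp. PCGF6 encodes a Polycomb group protein, and both of its sites were in sense orientation, 1705 bp in all 5 Hylobates and 1809 bp in both Symphalangus animals, 8210 bp apart. RNF17 encodes a Tudor-domain protein of male germ cells, known from mice for a role in spermatogenesis, and its sites were 1688 bp in 3 Hylobates animals and 1338 bp in both Symphalangus animals, both sense. USP32, a deubiquitinase gene, held an antisense Hylobates site of 1829 bp in all 5 animals and a sense Symphalangus site of 452 bp. DRG1, a GTP-binding protein gene, held sites 2705 bp apart, 1278 bp and sense in both H. moloch and 1823 bp and antisense in both Symphalangus animals.

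VPS13A, mutated in human chorea-acanthocytosis, held an antisense site of 464 bp in 3 Hylobates and one of 1789 bp in both Symphalangus animals. MYO5B, a myosin motor of vesicle recycling, held antisense sites of 1596 bp in 2 Hylobates and 374 bp in both Symphalangus animals. LAMA1, a laminin chain gene, held antisense sites of 1695 bp in 3 Hylobates and 462 bp in both Symphalangus animals. TBCE encodes a tubulin folding cofactor, and its sense sites were 1626 bp in H. moloch replicate 1 and H. muelleri and 1834 bp in both Symphalangus animals. SLC17A5, a lysosomal sialic acid transporter gene, and GMDS, which encodes an enzyme of GDP-fucose synthesis, held short Hylobates sites of 451 and 445 bp and Symphalangus sites of 1825 and 1341 bp. The remaining genes with both kinds of site were RCOR1, EYA3, CYP3A7, AC087632.1, MRE11 and SPAST, and MRE11 and SPAST are described with the gene lists.

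Few genes held several sites of one genus, 9 of 406 in Hylobates and 7 of 293 in Symphalangus, with 2 sites at most. In Hylobates, TMEM135 held sites of 635 and 1778 bp and ZNF799, a zinc finger gene, sites of 1839 and 843 bp, and all 4 were carried by all 5 animals. OSBPL10, an oxysterol-binding protein family gene, held a full-length sense site of 1837 bp in all 5 animals and an antisense one of 429 bp in 2. TPRG1 held full-length sites of 1838 and 1837 bp in 3 and 4 animals. EXOC6B, an exocyst subunit gene, held antisense sites of 1825 and 1631 bp in 2 animals each.

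In Symphalangus, SMC5, a subunit gene of the SMC5/6 complex of DNA repair, held sense sites of 557 and 1330 bp. EGLN3, which encodes an oxygen-sensing prolyl hydroxylase acting on HIF, held an antisense site of 874 bp and a sense site of 1340 bp. CDRT1 held antisense sites of 1537 and 1367 bp only 1405 bp apart, and LINC01756, a non-coding RNA gene, sense sites of 451 bp each, 1915 bp apart. Whether such near sites are separate insertions was not tested.

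Promoter and untranslated classes were rare in both genera. The promoter class held 25 Hylobates-only sites, of which 3 were carried by all 5 animals, and 11 Symphalangus-only sites. The Hylobates ones include EPS15L1, an endocytic adaptor gene (742 bp, sense, all 5 animals), and, with 2 carriers each, CATSPERE, a subunit gene of the sperm calcium channel (1837 bp, antisense), CACTIN (1837 bp, sense), LMAN2 (1809 bp, sense), PIAS1, a SUMO ligase gene (1271 bp, antisense), PARVA (831 bp, sense) and KDM2A, a histone demethylase gene (578 bp, sense). The Symphalangus ones include GINS1, a subunit gene of the replicative helicase (1837 bp, sense, chromosome 13 at 41528472), COMTD1 (1839 bp, sense), CCDC117 (1626 bp, antisense), GRHPR, which encodes a glyoxylate reductase (1357 bp, antisense), GGA2, a Golgi sorting adaptor gene (987 bp, antisense), KRT6C, a keratin gene (451 bp, sense) and RPLP1, a ribosomal protein gene (399 bp, antisense).

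Of the Hylobates-only sites in an untranslated class, those of LYST, a lysosomal trafficking gene (1626 bp, sense, 4 animals), SUOX, which encodes sulfite oxidase (452 bp, sense), STOX1 (463 bp, sense), COX20 (464 bp, antisense) and PLSCR4 (462 bp, antisense) had a length at a peak of partly carried sites, and none of the 5 was carried by all Hylobates animals. PSMD4, a proteasome subunit gene, held an antisense Symphalangus-only site of 1368 bp, and THY1, a cell-surface protein gene, a sense one of 1363 bp. Both sites, also of an untranslated class, fell in the group of 1300 bp to below 1400 bp. The full-length Hylobates site of CDKL1 (1838 bp) and the one of 377 bp named GAS1RR were carried by all 5 Hylobates animals. GAS1RR is a non-coding RNA name, so its untranslated class cannot be read as a coding gene's end.

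The gene lists are given as counts of genes with a site of either genus, with no enrichment test. Over all genes, 406 held a Hylobates-only and 293 a Symphalangus-only site in the gene body, at 415 and 300 such sites. The total number of genes is not given here, so a share of genes hit cannot be set beside a list. Nothing particular to a list is read from its counts. Of 66 chromosome segregation genes, 7 held a Hylobates-only site and 1 a Symphalangus-only site. The Hylobates sites include those of the condensin genes SMC2 (1649 bp, sense, 4 animals) and NCAPD3 (1839 bp, sense, 2 animals), the anaphase-promoting complex genes ANAPC5 (455 bp, 4 animals) and ANAPC10 (1694 bp, 3 animals) and the kinetochore gene PMF1 (1821 bp, antisense, all 5 animals), and the Symphalangus site was in the condensin gene NCAPH (1820 bp, sense). Of 65 microtubule and cilium genes, 2 and 5 held a site. SPAST, the gene of the microtubule-severing protein spastin, held both kinds, 455 bp in the 2 H. moloch and 1828 bp in both Symphalangus animals, 2412 bp apart and both sense. KIF13A and KIFAP3, genes of kinesin transport, held Symphalangus sites of 1837 and 1367 bp.

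Of 69 DNA repair genes, 2 held a Hylobates-only and 3 a Symphalangus-only site. MRE11, a nuclease gene of double-strand break repair, held full-length sites of both kinds, 1833 bp and sense in all 5 Hylobates and 1839 bp and antisense in both Symphalangus animals, 28844 bp apart. BRIP1, a helicase gene, and ERCC8, a gene of transcription-coupled repair, held sense Symphalangus sites of 1626 and 1339 bp. Of 67 genes of transposon silencing and chromatin, 2 and 3 held a site, among them MPHOSPH8, a component gene of the HUSH silencing complex, with a full-length antisense Symphalangus site of 1837 bp, and KMT2C, a histone methyltransferase gene, with a sense one of 1322 bp. Of 68 very long neuronal and signalling genes, 12 held 15 Hylobates-only sites and 3 held 3 Symphalangus-only sites. They include GRM8, a glutamate receptor gene (528 bp, all 5 Hylobates), GPC5 (1626 bp, 2 Hylobates) and CNTNAP2, a neurexin family gene (413 bp, both Symphalangus).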

How the data were processed

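Blood DNA of 23 gibbons was sequenced as whole-genome libraries. The submitters' processing notes name BWA. The sources used here do not give the insertion caller, its filters, the build or the annotation. The deposited table holds other data than counts: a call per site and animal, 1 for carried, 0 for not carried and NA for missing. Beside the calls it holds positions, lengths, location classes, gene names and gene IDs, per the file headers. It holds no read numbers, so depth is unknown.

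Animals were matched by label. Replicate numbers follow the order of deposit and pair nothing. Whether the animals are related is unknown, so p-values describe these animals.

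Animals were compared with exact two-sided permutation tests over 21 assignments, in families of 3 counts and 4 shares. Sets of sites were compared with two-sided Fisher's exact tests, which treat each site as 1 insertion, in families of 4 pairs. Adjustment was Benjamini-Hochberg and the threshold 0.05. Intervals are exact Clopper-Pearson and cover counting error only. Python 3.11.15 and scipy 1.17.1 were used. On simulated calls, drawn independently per animal, planted complete differences were recovered and a planted difference in shares had the right sign. Error rates of the tests were not measured. Of 1952 gene names at member sites, 1440 were protein-coding in the RefSeq table of assembly Asia_NLE_v1, used for names only. Genes named are, within fixed numbers, those hit in both genera, with several sites of a genus, in promoter or untranslated classes, carried by all 7 animals alone, or on 5 gene lists. Members and lists were chosen with earlier results of these data known. The start windows, the length classes for the share in genes and the pairs of Hylobates animals were added after the values had been seen. Some items are not reported here.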

Additional observations from a re-analysis of the deposited data

Results flagged for a closer look

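Within Hylobates, the sense share of intronic sites of H. pileatus, 35.1%, lay apart from the other 4 animals, which had 37.1% to 37.4%. The gap was over the 95% limit for the lowest of 5 values. Such a limit is passed by chance in about 1 of 20 groups, and 10 quantities were looked at. The difference from Symphalangus in this share was not past the threshold.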

How the results depend on the processing

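Differences are Hylobates minus Symphalangus in percentage points unless said otherwise, with adjusted p from Fisher's exact test. Of 310 alternative values of 24 results, 266 kept their direction and side of the threshold. Many of these could not change side. Permutation tests over animals could not pass the threshold without 1 animal or with H. moloch alone. Fisher's tests per site could not pass without 1 animal, and otherwise only if nearly every site was a complete difference. Leaving out sites within 100 bp of another removed 2 sites, none from the sets of sites compared. The count of 266 therefore overstates how far the results were tried. The share in genes of Hylobates-only against Symphalangus-only sites kept its direction under every alternative run, but its call was lost with missing calls left out (-5.79) or counted as carried (-6.18), at 1000 bp and over (-8.09), with promoters added (-5.99), with promoters and terminators added (-4.68), with coding names alone (-4.92) and without the X chromosome (-6.86). With Hylobates sites carried by all 5, the call was lost under the same settings (-9.56, -9.66, -6.66, -10.2, -9.04, -8.36 and -9.29) and at 540 bp and over (-8.98). Leaving out 1 animal gave -7.27 to -6.65 and -9.81 to -7.76 for these sets. The call on the second was lost without H. pileatus, H. moloch replicate 1 or Symphalangus replicate 1. Listed sites have at least 2 carriers, so leaving out a Hylobates animal removed none of the 828 Hylobates-only sites. Nor did leaving out a Symphalangus animal remove any of the 526 Symphalangus-only sites. The narrow first range was partly fixed by this. For complete differences the share in genes passed with H. moloch alone defining Hylobates (-7.24), and leaving out 1 animal gave -8.91 to -5.73, past the threshold without H. moloch replicate 2 or H. muelleri. Complete minus partial Hylobates sites turned to 0.728 at 1000 bp and over, and ran from -3.67 to 0.186 without 1 animal. With missing calls as carried, complete differences gave -0.198 for long sites and 6.99 for short sites (adjusted p = 0.0374). Without 1 animal, complete differences ran from -2.45 to 1.61 for sense, -1.94 to 1.57 for long and 1.36 to 10.4 for short sites, and sites of all 5 against Symphalangus-only sites from -0.185 to 4.32, -1.78 to 3.71 and 0.974 to 9.0. The short-site values passed without H. pileatus in both, and in the first also without H. lar or H. moloch replicate 2. Also without 1 animal, differences per animal ran from -103 to 17.8 single-base and -26 to 0 interval sites. A call can also change because the p of another pair in its family moved. The cause of the changes in the differences was not tested. The files give no read depth, so what depth limits is unknown.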

Other observations

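NEMF, a gene of ribosome-associated quality control, held the only member sites within 100 bp of another listed site, at 81681062 (1412 bp) and 81681090 (1599 bp) on chromosome 1a. Each was carried by 3 Hylobates animals and 1 Symphalangus animal and by no animal of another genus. By chromosome, 17 held 52 Hylobates-only sites and 15 Symphalangus-only sites, 6.28% and 2.85% of the sets, and 7b held 34 and 8. The chromosomes were picked after their counts were seen, and no test is given.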
